A study of Drosophila melanogaster with 69 samples.

Results

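Testes dissected from wild-type Drosophila melanogaster males of the Oregon R strain were compared between day 11 and day 1 of adult life. The comparison takes every library labelled Oregon R, testis and day 1 or day 11, which is 6 of the 69 libraries of the series, 3 for each day. No transgene, mutation or treatment was listed for these flies, which were kept at 25 °C on standard food and carried the genotype label WT. The sample titles of the youngest group say day 0 where the age label says day 1, and the age label is followed here. The rest of the series holds wild-type testes of days 3, 5, 7 and 9, wild-type ovaries, and testes and ovaries of chinmoST flies over the same ages. Each library was made from poly(A) RNA of a pool of testes from many males, and nothing in the labels says whether the pools came from separate cultures, so the p-values measure the spread between these pools. Expression was measured as estimated read counts per gene, which totalled between 46210038 and 181988641 per library in the 6 libraries.

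The fly testis is a blind tube in which germline stem cells and somatic cyst stem cells surround a small cluster of hub cells at the tip. Germ cells leave the tip as spermatogonia, grow as spermatocytes under a testis-specific transcription programme, pass meiosis, and elongate as spermatids within a pair of cyst cells. A muscle sheath, a pigmented epithelium and a basement membrane wrap the tube, and it opens at its base into the seminal vesicle, near the accessory glands and ejaculatory duct that make seminal fluid. The comparison asks what differs in the RNA of the whole dissected organ between newly emerged males and males of day 11.

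Few genes differed between the days, and no gene of the germline lists was among them. Of 14167 genes tested with edgeR's quasi-likelihood test, 165 (1.16%) were higher and 468 (3.30%) were lower at day 11 (Benjamini-Hochberg adjusted p below 0.05, with a change of 1.5-fold or more). The day 11 libraries lay wholly above or wholly below the day 1 libraries for all 633 of these genes, as they did for 14.2% (above) and 13.9% (below) of all genes tested. The median log2 fold change of all tested genes was 0.01. The genes that rose were modest in size, with a median log2 change of 1.01, whereas the genes that fell had a median of -3.08. Both sets were mostly weakly expressed: the mean of the higher day was under 5 CPM (read counts relative to library size, scaled by edgeR's TMM factors) for 53.3% of the genes that rose and 72.2% of those that fell, against 37.2% of all tested genes. In a bulk organ, fewer cells of a type and less RNA per cell cannot be told apart, which holds for every result here.

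**Figure D1:**
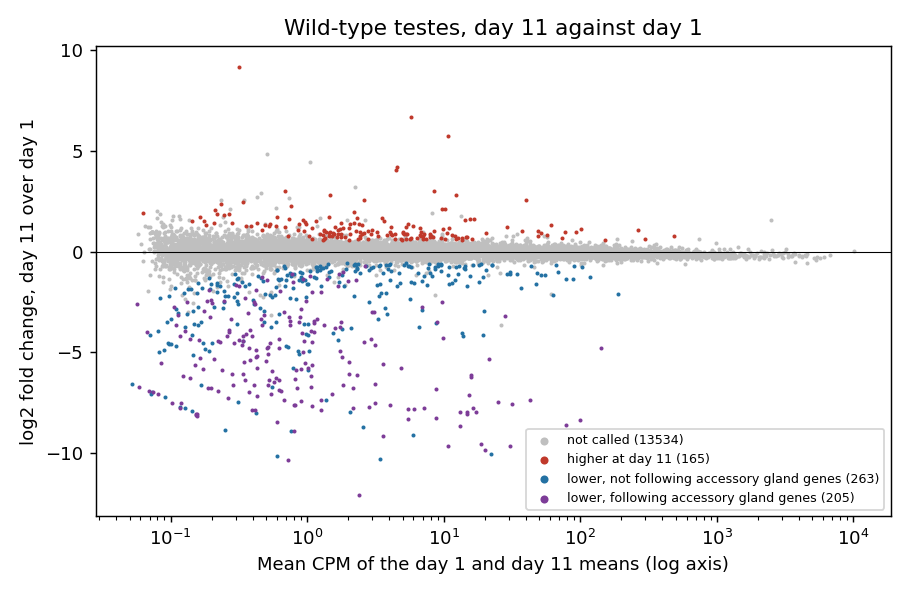
Each point is 1 of 14167 tested genes; the horizontal axis is the mean of the day 1 and day 11 mean CPM on a log axis and the vertical axis the log2 fold change of day 11 over day 1. The 165 genes that rose (red) form a shallow band, while the 205 genes that fell and follow the accessory gland genes in other libraries (purple) reach far lower than most of the other 263 that fell (blue).

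Germline genes differed little in level between the days. None of the 142 tested members of 14 germline lists, which cover stem cells and spermatogonia, the mitotic cycle, the piRNA pathway, spermatocytes, the meiotic arrest genes, spermatids, sperm chromatin and tail, and the Y-linked fertility factors, passed the test in either direction. The smallest adjusted p among them with edgeR's quasi-likelihood test was 0.0528, 28 of the 142 (19.7%, against 19.5% of all tested genes) had an unadjusted p under 0.05, and DESeq2 also called 0 of them. Their log2 fold changes ran from -0.44 to 0.50 with a median of 0.00, and 133 of the 142 (93.7%) lay within 0.3 of 0, against 79.7% of all tested genes. The pooled median covers small shifts in both directions, with list medians from -0.16 for early spermatids to 0.19 for stem cells and spermatogonia. Mitotic cycle genes summed to 1287 to 1315 CPM on day 1 and 1378 to 1401 CPM on day 11. The post-meiotic cup and comet genes summed to 5421 to 5617 CPM and then 5008 to 5168 CPM. RnrS, a subunit of ribonucleotide reductase, was called higher when libraries were scaled by size alone and when replicate 1 of day 1 was left out.

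Single stage markers showed small changes in the libraries themselves, and none of those given here was called. bol, which encodes an RNA-binding protein needed for the entry into meiosis, stood at 2973, 2488 and 3116 CPM on day 1 and at 2438, 2372 and 2478 CPM on day 11, a log2 change of -0.23 ± 0.089 (SE) with an adjusted p of 0.202. aly, a meiotic arrest gene that the spermatocyte programme needs, stood at 24.1, 26.2 and 24.2 CPM on day 1 and between 29.2 and 29.5 CPM on day 11, with an adjusted p of 0.096. dj, which encodes a protein of the sperm tail, gave 981.0, 1084 and 1017 CPM and then 951.7, 943.1 and 952.4 CPM, again with no call. For bol and dj every day 11 library lay below every day 1 library, and for aly every day 11 library lay above. vas, the germline RNA helicase, shares 24.6% of its exon length with solo, so its reads are uncertain; it gave 22.8, 17.6 and 18.4 CPM on day 1 and 22.5, 18.8 and 19.7 CPM on day 11, and the days overlapped.

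Genes of the niche and the cyst lineage gave no call. Of 61 tested genes in 9 lists of hub, cyst stem cell, cyst cell and niche signalling genes, 0 passed with edgeR's quasi-likelihood test, 15 (24.6%) had an unadjusted p under 0.05, and the median log2 change was 0.02. Within 0.3 of 0 lay 78.7% of them, close to the 79.7% of all tested genes. DESeq2 called 1 of them, upd3, a JAK-STAT ligand, which had a log2 change of 2.55 ± 0.68 (SE) at a mean of 0.11 CPM on day 1 and 0.575 CPM on day 11 (edgeR adjusted p = 0.0742). By edgeR's adjusted p alone 2 were higher, tkv and CG31676, and 2 lower, CG8665 and CG3376, all below the fold required. tkv, a BMP receptor, had the smallest adjusted p (0.00581) with a log2 change of 0.44. CG8665 and CG3376 are the 2 genes of the late cyst cell list, at log2 changes of -0.44 and -0.45. Their summed level was 113.6 to 124.4 CPM on day 1 and 79.95 to 96.12 CPM on day 11. upd1, the ligand made by hub cells, gave 49.5, 41 and 48.8 CPM on day 1 and 40.4, 38.9 and 40.4 CPM on day 11 (adjusted p = 0.222). zfh1, a transcription factor of cyst stem cells, gave 25.8, 25.5 and 28.3 CPM and then 30.6, 29.5 and 29.9 CPM (adjusted p = 0.22). The days did not overlap for upd1, which was lower at day 11, or for zfh1, which was higher.

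chinmo, the transcription factor that keeps the male identity of cyst stem cells and whose mutant the series is built on, did not pass the test. It gave 367.5, 347.6 and 414.0 CPM on day 1 and 346.3, 350.1 and 362.4 CPM on day 11, and the days overlapped. Its log2 change was -0.09 ± 0.078 (SE), with an edgeR adjusted p of 0.555. Of 229 tested genes for cytosolic ribosomal proteins, the proteasome and both genomes' parts of oxidative phosphorylation, 0 passed with edgeR, 20 (8.7%) had an unadjusted p under 0.05, DESeq2 called 0, and the median log2 change was 0.08; without replicate 2 of day 1, 5 of them were called higher.

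**Figure D2:**
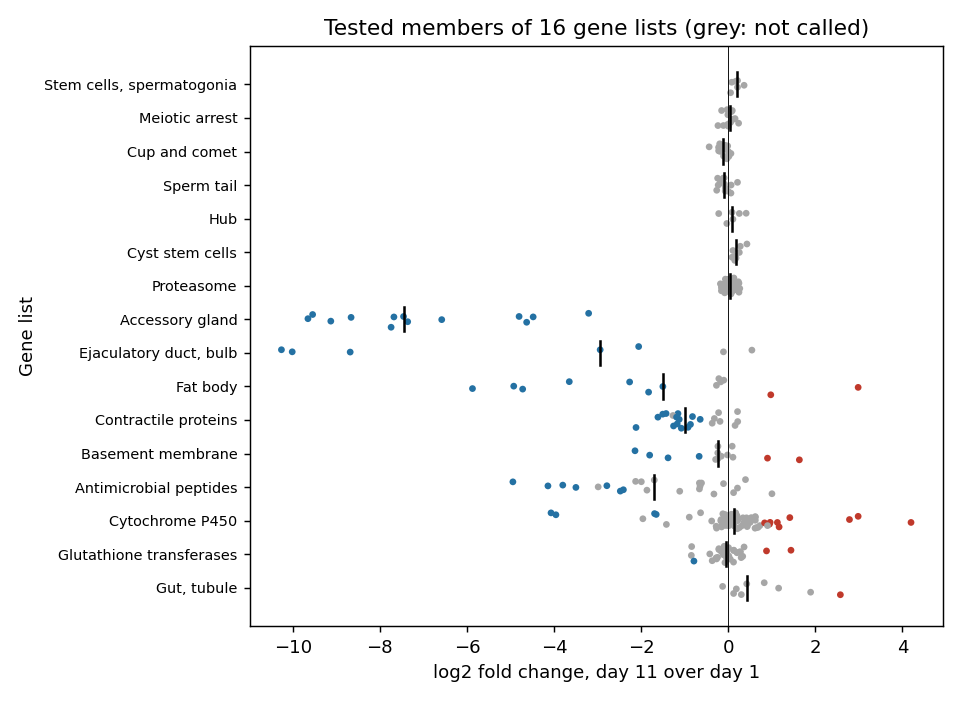
Each point is a tested member of 1 of 16 gene lists, placed by its log2 fold change of day 11 over day 1; red and blue points passed the test as higher and lower, grey points did not, and black bars are list medians. Germline, hub, cyst stem cell and proteasome genes sit near 0, while accessory gland genes lie between -9.65 and -3.20.

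The strongest falls were in genes for seminal fluid proteins of the accessory gland. All 13 tested members of the accessory gland list fell, where 3.30% of all tested genes did, with a median log2 change of -7.45 against 0.01 for all tested genes. Their gland is a separate organ beside the base of the testis, and its secreted proteins pass to the female at mating. Acp26Aa (ovulin, a prohormone-like seminal protein, at 2L:5892883-5893896 on the dm6 assembly) gave 48.0, 44.3 and 56.1 CPM on day 1 and 0.209, 0.268 and 0.353 CPM on day 11. That is a log2 change of -7.45 ± 0.17 (SE), with an edgeR adjusted p of 1.42e-07. msopa (3L:22082720-22083367) had the smallest adjusted p of the list, 1.88e-08, and went from 90.3, 85.1 and 79.1 CPM to 0.457, 0.499 and 0.584 CPM.

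Acp76A, a serpin of the seminal fluid, fell from 18.5, 19.7 and 26.4 CPM to 0.0199, 0.021 and 0.036 CPM, a log2 change of -9.65 ± 0.26 (SE; edgeR adjusted p = 2.97e-07). Acp33A, Acp53Ea, Acp62F, Mst57Db and CG42481 were also among the 10 largest falls, at log2 changes from -9.85 for CG42481 to -8.66 for Acp53Ea. Mst57Db, which encodes a short accessory gland peptide (3R:25830720-25830914), stood at 72.3, 41.5 and 68.9 CPM on day 1 and at 0.0596, 0.0315 and 0.144 CPM on day 11. CG42481 (3L:13298797-13299023) stood at 39.2, 34.4 and 45.8 CPM and then at 0.00994, 0.021 and 0.0937 CPM, which were 1, 4 and 13 reads.

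The list's summed level separated the days without overlap but was erratic between them. It was 523.3, 546.6 and 671.3 CPM in the day 1 libraries and 17.6, 15.2 and 17.5 CPM in the day 11 libraries. On days 3 to 9 it ranged from 14.6 CPM in replicate 3 of day 7 to 1208 CPM in replicate 2 of day 5. Within day 3 alone it was 137.5, 539.4 and 16.8 CPM. How much gland tissue went into each pool was not measured.

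The genes that move with this list could be described from libraries outside the comparison. Across the 30 testis libraries of other days or of chinmoST flies, 205 of the 468 genes that fell (43.8%) had a Pearson r of at least 0.8 with the summed accessory gland level on a log2(CPM + 0.1) scale, against 211 of all 14167 tested genes (1.49%) and 0 of the 165 that rose. These libraries share tissue pools and depth across genes, so the correlation is a description. The 205 genes summed to a mean of 1773 CPM on day 1 and 50.3 CPM on day 11, with a median log2 change of -5.32. The other 263 genes that fell summed to 2986 and 1202 CPM, with a median log2 change of -1.60. In wild-type libraries of days 3 to 9, 95.1% of the 205 genes were more than 2-fold higher in testis than in ovary, against 47.4% of all tested genes and 53.2% of the 263. Without the 205, chosen after seeing the data, 428 genes remained called, 165 higher and 263 lower.

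**Figure D3:**
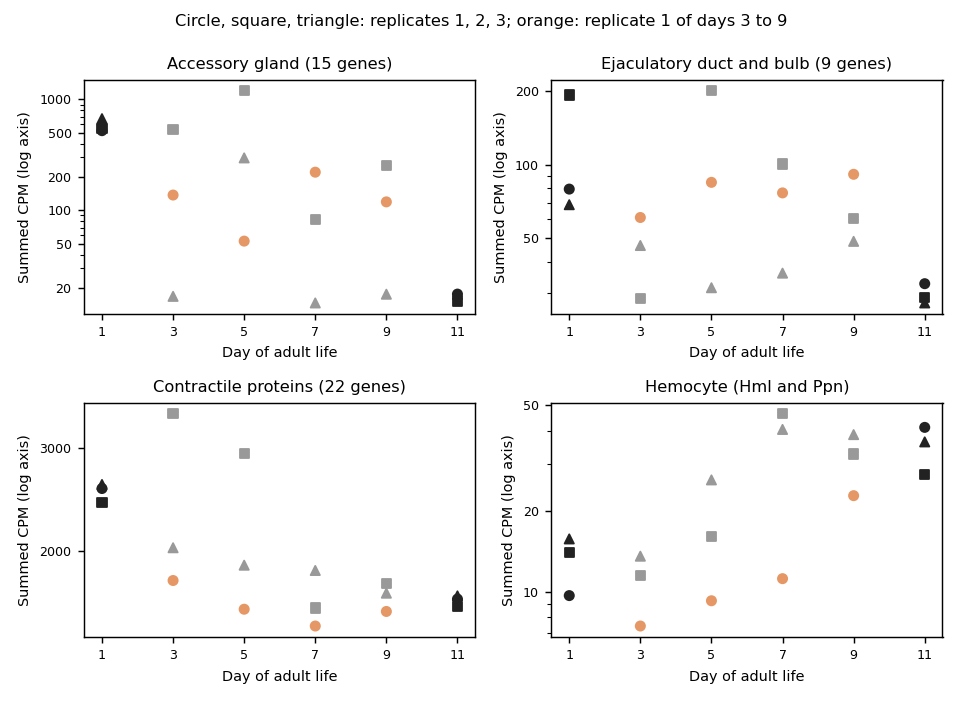
Summed CPM of 4 gene lists, on log axes, in each of the 18 wild-type testis libraries by day; black symbols are the libraries compared, and orange marks replicate 1 of days 3 to 9. The accessory gland sum is 523.3 CPM or more at day 1 and at most 17.6 CPM at day 11 but scatters widely between, while the contractile sum of replicate 2 at day 3 (3444 CPM) exceeds every day 1 library.

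Most tested genes of the ejaculatory duct and bulb, which line the path of the seminal fluid, fell as well. Of 7 tested members 5 fell and 2 did not pass, where 3.30% of all tested genes fell. The highest log2 change of the list was 0.54. By adjusted p alone 1 member was called higher, as it was with library size alone, without replicate 3 of day 11 and with limma on log2(TPM + 1). Dup99B, a ductus relative of the sex peptide (3R:29715068-29715377), stood at 5.35, 12.6 and 2.71 CPM on day 1 and had 0, 1 and 1 reads in the day 11 libraries. Its ratio of day 1 to day 11 over the pooled reads, scaled by library totals, was 1815 with an exact 95% counting interval from 501.7 to 14990. Met75Cb (3L:18469378-18469618) went from 20.2, 89.8 and 22.4 CPM to 0.0199, 0.0105 and 0.101 CPM, a log2 change of -10.01 ± 0.95 (SE; edgeR adjusted p = 0.000308); it has a close paralog, Met75Ca, and the split of reads between them is uncertain. Obp51a, an odorant-binding protein gene of the duct list, had 445, 862 and 51 reads on day 1 and 0, 2 and 3 on day 11. CG43101, among the 10 largest falls, went from 7.07, 21.5 and 7.27 CPM to 0, 0.0105 and 0.0505 CPM.

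Replicate 2 of day 1 was the highest of its day for Dup99B, Met75Cb and CG43101 and the second for Obp51a. Among accessory gland genes its place varied: it was the lowest for Acp26Aa and Mst57Db but the middle value for Acp62F, Acp76A and msopa. The r with the accessory gland sum was 0.55 for Met75Cb, 0.56 for CG43101, 0.57 for Obp51a and 0.58 for Dup99B, under the 0.8 used above. The serpin genes Spn77Bb and Spn77Bc, named after their values were seen as large falls outside the accessory gland group, also had their highest day 1 value in replicate 2. Spn77Bb gave 20.97, 43.4 and 12.8 CPM on day 1 and 1.33, 1.75 and 1.58 CPM on day 11, and 33.8 CPM in replicate 2 of day 5, where its other libraries were at 1.61 and 1.60 CPM.

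Genes of the larval fat body, the storage tissue that persists for a short time in newly emerged flies, also fell. Of 13 tested members of the fat body list 7 fell, 2 rose and 4 did not pass, where 3.30% of all tested genes fell and 1.16% rose. The members that fell included the larval serum proteins Lsp1alpha, Lsp1beta, Lsp1gamma and Lsp2 and the fat body proteins Fbp1 and Fbp2. Lsp1beta, a hexamer subunit stored as an amino acid reserve, went from 2.10, 1.44 and 1.42 CPM to 0.0397, 0.0578 and 0.0577 CPM, a log2 change of -4.92 ± 0.27 (SE; edgeR adjusted p = 1.27e-05). Fbp1, a receptor for such proteins, went from 3.43, 1.34 and 1.24 CPM to 0.0298, 0.021 and 0.0504 CPM. Both were already low at day 3, where no library passed 0.196 CPM for Lsp1beta or 0.096 CPM for Fbp1.

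Lsp2 fell less, from 12.2, 6.52 and 6.88 CPM to 2.87, 3.26 and 2.86 CPM, but 84.6% of its exon length overlaps an antisense gene, so its reads are uncertain. Obp99b fell from 1.31, 1.57 and 1.26 CPM to 0.0696, 0.0368 and 0.0577 CPM. The summed level of the whole fat body list did not separate the days, at 400.9 to 435.5 CPM on day 1 and 412.3 to 432.6 CPM on day 11. The members that rose were Tsf1, the iron-binding transferrin, at a mean of 52.4 and then 103.3 CPM, and Cyp4g1, described with the P450 genes. Of the ovary list only Yp3, a yolk protein gene, fell, from 11.8, 7.88 and 8.83 CPM to 2.03, 1.82 and 1.76 CPM (log2 change -2.34 ± 0.16 SE, edgeR adjusted p = 4.01e-05), and the list summed to at most 34.3 CPM in these testes.

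The contractile apparatus of muscle was lower at day 11. Of 22 tested genes 14 fell, none rose and 8 did not pass, where 3.30% of all tested genes fell, with a median log2 change of -1.0 against 0.01 for all tested genes, and the summed level was 2558, 2417 and 2599 CPM on day 1 and 1651, 1601 and 1672 CPM on day 11. Act57B, a muscle actin, showed the largest fall of the list, from 376.6, 270.8 and 272.8 CPM to 73.4, 71.3 and 67.6 CPM, a log2 change of -2.12 ± 0.13 (SE; edgeR adjusted p = 2.34e-05). Mp20, a calponin-like muscle protein, went from 71.2, 75.02 and 68.5 CPM to 25.0, 25.4 and 19.8 CPM (edgeR adjusted p = 2.99e-05). Tm2, a tropomyosin, went from 27.9, 25.7 and 26.6 CPM to 10.8, 9.13 and 8.36 CPM. Mhc, the muscle myosin heavy chain, went from 153.3, 187.4 and 159.2 CPM to 85.3, 63.2 and 61.3 CPM.

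On the days between, some libraries lay outside the range of days 1 and 11. Mp20 stood at 61.2, 84.4 and 41.8 CPM on day 3, where replicate 2 exceeded every day 1 library, at 35.05, 16.02 and 28.1 CPM on day 7, where replicate 2 lay below every day 11 library, and at 39.5, 25.0 and 25.1 CPM on day 9. Of the 468 genes that fell, 10 (2.14%) had an r of at least 0.8 with the summed contractile genes across the 30 other libraries. Of all tested genes, 43 (0.304%) did. With DESeq2 14 contractile genes fell, with the 14-library fit described at the end 12, and with all 18 wild-type testis libraries 3. l(2)efl, a small heat shock protein gene, was the only 1 of 29 tested chaperone genes to change, from 18.2, 25.3 and 24.7 CPM to 8.51, 7.43 and 5.16 CPM. Of the gene lists for signalling, nkd, a feedback inhibitor of Wnt signalling, fell from 25.1, 23.5 and 34.4 CPM to 16.1, 17.6 and 19.0 CPM (edgeR adjusted p = 0.0332), a call lost without replicate 3 of day 1 or without any day 11 library (adjusted p up to 0.157).

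The basement membrane list split. Of 14 tested genes 4 fell, 2 rose and 8 did not pass, where 3.30% of all tested genes fell and 1.16% rose. The collagen IV chains Col4a1 and vkg, which form the network of the membrane together, both fell. Col4a1 went from 152.3, 76.2 and 80.7 CPM to 26.7, 20.9 and 22.5 CPM, a log2 change of -2.14 ± 0.26 (SE; edgeR adjusted p = 0.00115). vkg went from 81.5, 45.6 and 44.9 CPM to 17.5, 15.3 and 16.5 CPM. trol, which encodes perlecan, went from 131.6, 100.2 and 110.8 CPM to 46.0, 39.8 and 45.8 CPM, and LanA, a laminin chain, fell from a mean of 22.4 to 14.1 CPM. Replicate 1 of day 1 stood well above the other day 1 libraries for both collagen chains, and without that library both falls still passed.

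The members that rose were Ppn, which encodes papilin and also marks hemocytes, and Mmp1, a matrix metalloproteinase that cleaves such proteins. Mmp1 rose from a mean of 14.1 to 26.4 CPM (log2 change 0.90, edgeR adjusted p = 0.0205). On day 3 Col4a1 stood at 31.6, 63.9 and 30.3 CPM, below every day 1 library.

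Genes of blood cells rose. The hemocyte list has only 2 genes, Hml and Ppn, and both rose. Their summed level was 9.66, 13.99 and 15.7 CPM on day 1 and 41.2, 27.5 and 36.4 CPM on day 11. Hml, the clotting factor hemolectin, went from 4.63, 5.91 and 6.07 CPM to 13.6, 9.63 and 11.2 CPM, a log2 change of 1.05 ± 0.15 (SE; edgeR adjusted p = 0.00359). Ppn went from 5.03, 8.08 and 9.68 CPM to 27.6, 17.9 and 25.2 CPM.

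PPO1 and PPO2, which encode the prophenoloxidases that crystal cells, a blood cell type, store for melanization, were among the 10 largest rises. PPO1 (2R:17887220-17889973) had 2, 67 and 28 reads on day 1, which were 0.0359, 0.488 and 0.632 CPM, and rose to 22.3, 19.1 and 21.8 CPM on day 11. Its log2 change was 5.72 ± 0.39 (SE), with an edgeR adjusted p of 3.88e-05. PPO2 (2R:9042261-9044709) went from 2.17, 3.26 and 3.84 CPM to 21.5, 19.2 and 23.7 CPM, a log2 change of 2.80 ± 0.18 (SE; edgeR adjusted p = 2.99e-05).

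Other blood cell genes were picked after their values were seen. Sr-CI, a scavenger receptor of phagocytic hemocytes, rose from 0.593, 0.612 and 1.20 CPM to 4.84, 3.72 and 4.67 CPM, a log2 change of 2.54 ± 0.25 (SE; edgeR adjusted p = 0.000361). NimC1, a phagocytosis receptor, rose from 0.557, 0.422 and 0.519 CPM to 1.34, 1.07 and 1.34 CPM. lz, the transcription factor that specifies crystal cells, was at 4 to 21 reads per library on day 1 and 16 to 49 on day 11, and its log2 change of 0.91 ± 0.35 (SE) had an adjusted p of 0.204. Whether the number of blood cells that came with the testes changed was not tested.

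**Figure D4:**
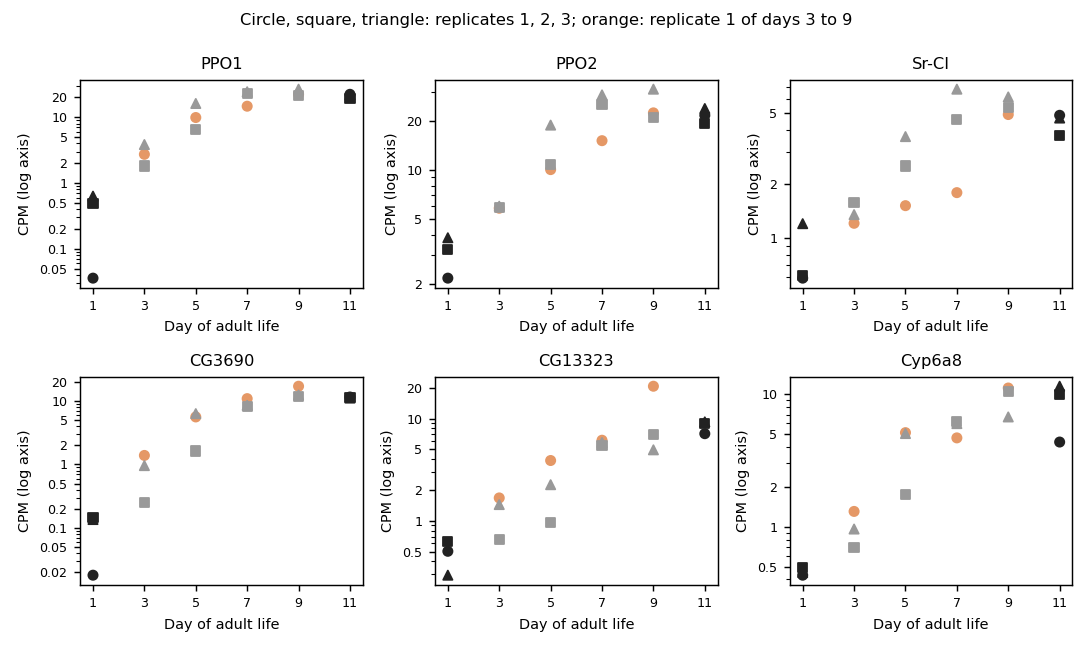
CPM, on log axes, of 6 genes that rose in each of the 18 wild-type testis libraries by day; circle, square and triangle are replicates 1, 2 and 3, black symbols the libraries compared, and orange replicate 1 of days 3 to 9. PPO1 climbs from at most 0.632 CPM on day 1 to at least 14.7 CPM in every library from day 7 on.

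The days between gave a course for some of these genes. PPO1 stood at 2.73, 1.82 and 3.84 CPM on day 3, at 9.89, 6.53 and 16.1 CPM on day 5, at 14.7, 23.1 and 24.4 CPM on day 7 and at 22.2, 21.1 and 26.6 CPM on day 9. PPO2 stood at 5.82, 5.90 and 5.98 CPM on day 3 and at 10.02, 10.7 and 18.8 CPM on day 5. Hml, NimC1 and Ppn were not above day 1 in their day 3 means. On day 3 Ppn stood at 3.82, 6.59 and 8.19 CPM, within the range of day 1 or below it, and on day 7 at 5.68, 29.8 and 29.6 CPM. Across the 30 other testis libraries, 12 of the 165 genes that rose (7.27%) had an r of at least 0.8 with the sum of PPO1 and PPO2, against 16 of all tested genes (0.113%). PPO1 and PPO2 are themselves among the 165. These libraries span ages over which both rose, so genes picked for rising with age can reach a high r, and the correlation is a description.

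The largest rise by the naming rule was CG3690 (X:948585-951900), an uncharacterised gene. It had 1, 20 and 6 reads on day 1, which were 0.0179, 0.146 and 0.135 CPM, and stood at 11.6, 11.2 and 11.2 CPM on day 11, a log2 change of 6.65 ± 0.26 (SE; edgeR adjusted p = 2.21e-06). CG13323 (2R:13044695-13047256), also uncharacterised, went from 0.503, 0.626 and 0.293 CPM to 7.12, 8.92 and 9.28 CPM, a log2 change of 4.04 ± 0.21 (SE). jdp, which encodes a DnaJ-domain protein (3R:30517059-30527037), went from 1.42, 1.92 and 1.62 CPM to 5.21, 5.16 and 5.81 CPM. CG15784 went from 3.32, 4.27 and 3.68 CPM to 19.9, 17.0 and 12.9 CPM.

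CG33502 scattered on the days between. It stood at 3.09, 2.18 and 5.89 CPM on day 1 and at 17.6, 11.9 and 17.2 CPM on day 11 (edgeR adjusted p = 0.00511). On days 3 to 9 its libraries ranged from 0.0466 CPM in replicate 1 of day 9 to 17.1 CPM in replicate 3 of day 7.

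Among the cytochrome P450 genes, whose enzymes oxidise foreign compounds, hormones and lipids, more rose than fell. Of 75 tested cytochrome P450 genes 9 rose, 4 fell and 62 did not pass, where 1.16% of all tested genes rose and 3.30% fell, and the list's median log2 change was 0.13. Cyp6a8 (2R:14887171-14889010), from a family of P450 enzymes linked to insecticide metabolism, rose from 0.431, 0.495 and 0.451 CPM to 4.34, 9.88 and 11.4 CPM, a log2 change of 4.20 ± 0.39 (SE; edgeR adjusted p = 0.000251). Cyp6d5 rose from 69.2, 61.0 and 60.1 CPM to 139.5, 141.5 and 135.2 CPM, and its libraries lay close together on both days (edgeR adjusted p = 3.88e-05). Cyp4d8 rose from 1.98, 2.28 and 2.35 CPM to 4.29, 4.32 and 4.14 CPM. Cyp6g1, known for its part in DDT resistance, rose from a mean of 0.377 to 2.54 CPM.

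Cyp4g1, the oenocyte enzyme that makes cuticular hydrocarbons, rose from 2.39, 2.28 and 0.858 CPM to 4.43, 10.6 and 30.3 CPM (log2 change 2.98 ± 0.67 SE, edgeR adjusted p = 0.0369), and the call was lost without replicate 2 or 3 of either day (adjusted p up to 0.133). The 4 P450 genes that fell were Cyp28a5, Cyp28c1, Cyp4e1 and Cyp4s3, of which Cyp4s3 fell from a mean of 1.86 to 0.112 CPM. Of 33 tested glutathione transferases 2 rose, GstD6 and GstT4, and 1, GstD10, fell, where 1.16% of all tested genes rose and 3.30% fell. GstD6 rose from 0.198, 0.248 and 0.226 CPM to 0.775, 0.51 and 0.598 CPM. The call of GstT4 was lost without replicate 2 or 3 of day 11 (adjusted p up to 0.0638) and that of GstD10 without any library but replicate 1 of day 1 (up to 0.175). Among 20 antioxidant genes only Irc, a peroxidase, changed, from 9.93, 7.94 and 9.12 CPM to 16.4, 14.9 and 14.2 CPM (edgeR adjusted p = 0.00274).

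Some antimicrobial peptide genes, the effectors of the humoral immune response, were lower at day 11. Of 23 tested, 7 fell and 16 did not pass, where 3.30% of all tested genes fell, and the median log2 change was -1.70. The median was -0.71 without replicate 3 of day 1, -0.69 with thinned counts and -0.51 with limma on log2(TPM + 1), and with all 18 wild-type testis libraries 0 of 25 were called. BomBc2, a Bomanin peptide gene of the Toll response, went from 4.76, 2.99 and 3.93 CPM to 0.348, 0.215 and 0.288 CPM, a log2 change of -3.80 ± 0.24 (SE; edgeR adjusted p = 2.47e-05). BomS3 went from 67.5, 17.2 and 24.8 CPM to 3.07, 1.64 and 1.60 CPM. DptB, a diptericin of the Imd response, fell from a mean of 0.371 to 0.00987 CPM. On days 5 and 9 replicate 1 was high for BomS3, at 27.5 and 49.1 CPM, where the other libraries of those days were at 4.17 CPM or below. In these 2 libraries, unlike replicate 1 of day 1, values tracked gene length (correlations of -0.693 and -0.621 against -0.006). Whether this raised BomS3 was not tested.

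Of 30 tested immune receptor and signalling genes 2 rose, 1 fell and 27 did not pass, so the share that fell was near the 3.30% of all tested genes (1.16% rose). PGRP-SA, a circulating peptidoglycan receptor upstream of Toll, rose from 0.700, 0.837 and 0.700 CPM to 1.21, 1.398 and 1.29 CPM (edgeR adjusted p = 0.0196), a call lost without replicate 3 of day 1 or replicate 2 or 3 of day 11 (adjusted p up to 0.114). PGRP-LF, an inhibitor of the Imd receptors, rose from 1.71, 1.54 and 1.65 CPM to 2.90, 3.40 and 3.37 CPM, and shares 44.4% of its exon length with UGP, so its reads are uncertain. PGRP-SB1, a secreted amidase, fell from 0.503, 0.328 and 0.496 CPM to 0.0696, 0.131 and 0.0577 CPM. TotM, a stress-induced Turandot gene, rose from 0.0539, 0.211 and 0.135 CPM to 1.29, 1.24 and 1.16 CPM (log2 change 3.01 ± 0.31 SE), and Tep4, a thioester protein gene, rose from 4.56, 5.20 and 5.01 CPM to 8.12, 7.49 and 7.67 CPM.

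A few rises stood alone in their lists. Amy-p, an alpha-amylase gene of the gut, rose from 1.96, 17.4 and 14.5 CPM to 56.3, 80.7 and 67.9 CPM (log2 change 2.58 ± 0.58 SE, edgeR adjusted p = 0.0373). It has a near-identical copy, Amy-d, so the split of reads is uncertain, and the call was lost without replicate 3 of day 1 or without any day 11 library (adjusted p up to 0.115). The gut and tubule list summed to between 62.7 and 76.6 CPM on day 1 and between 126.3 and 150.6 CPM on day 11, with 1 of 9 tested members called. That member, Amy-p, made up most of the rise in the sum, with means of 11.3 CPM on day 1 and 68.3 CPM on day 11. rho, which encodes the protease that releases EGF receptor ligands, rose from 0.539, 1.30 and 0.948 CPM to 2.85, 2.21 and 2.70 CPM (edgeR adjusted p = 0.0149), a call lost without replicate 3 of day 1 or replicate 1 or 3 of day 11 (adjusted p up to 0.0794). tobi, an alpha-glucosidase gene controlled by insulin-like and glucagon-like hormones, rose from 0.503, 0.772 and 0.654 CPM to 1.63, 1.33 and 1.58 CPM. FASN2, a fatty acid synthase gene, rose from 4.78, 5.95 and 5.75 CPM to 8.04, 8.18 and 9.28 CPM (edgeR adjusted p = 0.0116), a call lost without replicate 1 of day 1 or replicate 3 of day 11 (log2 change between 0.53 and 0.56). glob1, a globin gene on the list of pigment cell markers, fell from 132.1, 88.5 and 111.4 CPM to 59.4, 75.3 and 69.7 CPM (edgeR adjusted p = 0.027), a call lost without any library but replicate 2 of day 1 (log2 change between -0.78 and -0.55, adjusted p up to 0.136).

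CG18628, a marker of the male gonad epithelium, stood at 478.5, 1816 and 1473 CPM on day 1 and 3199, 3749 and 4247 CPM on day 11, but its log2 change of 1.57 ± 0.40 (SE) had an adjusted p of 0.0618. Obp99c, named after its values were seen, fell from 13.8, 16.8 and 17.8 CPM to 1.34, 1.24 and 1.59 CPM (log2 change -3.54 ± 0.14 SE, edgeR adjusted p = 2.27e-06). By chromosome, 34 of the 468 genes that fell (7.26%) and 21 of the 165 that rose (12.7%) were on X, where 2118 of the 14167 tested genes lie, and none of the 51 tested Y genes was called.

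The days between give the course of these changes. For each called gene, the mean log2(CPM + 0.1) of a day was placed on a scale from 0 at the day 1 mean to 1 at the day 11 mean. Replicate 1 of days 3, 5, 7 and 9 was left out of this placing because its values tracked gene length, with correlations from -0.726 to -0.621 between log2 length and the deviation from the other libraries, against -0.177 to 0.168 in the other 14 wild-type testis libraries. The genes that rose had median positions of 0.36, 0.64, 0.96 and 1.02 on days 3, 5, 7 and 9. The falls outside the accessory gland group had median positions of 0.66, 0.51, 0.86 and 0.79, and the accessory gland group 0.59, -0.07, 0.78 and 0.66. The day 5 value of that group averages replicates that summed to 3895 and 1155 CPM, above and below the day 1 range of 1624 to 2057 CPM, and replicate 1, left out here, summed to 195 CPM. With all 18 libraries the rises gave 0.36, 0.73, 0.93 and 1.08, the falls outside the accessory gland group 0.64, 0.58, 0.82 and 0.69, and the accessory gland group 0.54, 0.18, 0.55 and 0.54.

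**Figure D5:**
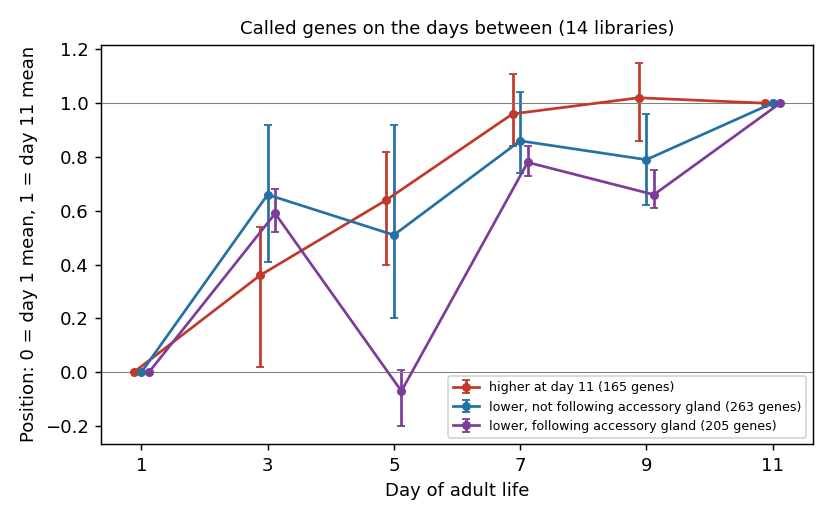
Median position of the called genes on each day, on a scale where 0 is the day 1 mean and 1 the day 11 mean of log2(CPM + 0.1), from the 14 wild-type testis libraries without the length trend; bars span the quartiles over genes. The rises climb to 0.96 by day 7, while the accessory gland group has no steady course and lies at -0.07 on day 5, a mean of replicates that summed to 3895 and 1155 CPM.

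Day 9 against day 3 is the comparison inside this span that shares no library with days 1 and 11. Without a block for replicate number, 0 of 13938 genes passed with edgeR's quasi-likelihood test (0% of tested genes higher and 0% lower) and 479 had an unadjusted p under 0.05, while DESeq2 called 35 higher and 4 lower. In these days the replicate numbers paired the libraries, and with number as a block 32 genes rose and 0 fell. Of those 32 genes 15 (46.9%) were among the 165 that rose from day 1 to day 11, which is 9.1% of the latter. The blocked log2 change in edgeR was 3.15 ± 0.17 (SE; adjusted p = 0.00375) for PPO1, 2.07 ± 0.14 (adjusted p = 0.00402) for PPO2, 4.17 ± 0.34 (adjusted p = 0.00783) for CG3690 and 3.31 ± 0.23 (adjusted p = 0.00402) for Cyp6a8. Hml, Ppn, Sr-CI, CG13323 and PGRP-SA also passed.

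In direction, 160 of the 165 genes that rose by day 11 (97.0%) were higher at day 9 than at day 3, against 51.4% of all tested genes fitted in both. Of the falls, 64 of 184 fitted genes of the accessory gland group and 98 of 221 of the others were higher at day 9. Obp51a, which fell from day 1 to day 11, rose from day 3 to day 9 under the block, by a log2 change of 5.44 ± 0.63 (SE; edgeR adjusted p = 0.0314).

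chinmoST testes of the same ages, in which loss of chinmo from cyst stem cells feminises the somatic lineage, were compared for the 20 largest rises and falls only, since 63.2% of all 14464 genes tested there differed between the genotypes in their change from day 1 to day 11. Of the 20 genes 5 differed, all of them falls of wild-type testes: CG42481, CG43101, Dup99B, Met75Cb and Mst57Db. None of the 10 rises passed the test of the difference. PPO1 stood in chinmoST testes at 0.0685, 0.0731 and 0.948 CPM on day 1 and at 11.4, 17.3 and 10.8 CPM on day 11, and the difference between genotypes was -0.59 ± 1.03 (SE; edgeR adjusted p = 0.625). For PPO2 it was 0.18 ± 0.34 (SE; edgeR adjusted p = 0.654), with chinmoST levels of 1.51, 1.64 and 1.82 CPM on day 1 and 10.3, 18.9 and 11.2 CPM on day 11. Replicate 3 of day 1 stood apart among the chinmoST libraries, and without it 16 of the 20 genes differed, among them the rises CG3690, CG13323, CG15784, Cyp6a8, Cyp4g1 and Amy-p, each with a larger change in chinmoST testes.

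The number of called genes rested on which libraries estimated the spread. When all 18 wild-type testis libraries were fitted together, the same contrast of day 11 against day 1 gave 25 higher and 28 lower genes, every 1 of them among the 633, and accessory gland genes were no longer called. Without replicate 1 of days 3, 5, 7 and 9 the 14 libraries left gave 163 higher and 418 lower genes, of which 139 and 390 were shared with the 6-library fit. PPO1, PPO2, CG3690, CG13323, Cyp6a8, Sr-CI, Act57B, Mp20, Col4a1, vkg, trol, Yp3, Fbp1 and Lsp1beta passed in all of these fits.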

How the data were processed

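RNA-seq libraries of pooled testes, prepared with oligo(dT) capture and sequenced as paired reads on a DNBSEQ platform, were analysed at the gene level. Per the submitters' processing notes, reads were checked with FastQC 0.11.9, trimmed with Trim Galore 0.6.4 and quantified with RSEM and Bowtie2 on dm6. The authors deposited, for each library, RSEM's estimated counts per gene and the TPM values that RSEM derives from them and from effective length. Versions of RSEM and Bowtie2 and the strand setting were not given in the sources used here. RSEM divides reads shared by similar genes, so values of near-identical copies are uncertain. Gene symbols and positions came from an annotation of the same assembly, which held 17710 of the 17807 gene IDs.

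Estimated counts were rounded. The main test was edgeR 4.0.16 (R 4.3.3) with filterByExpr, TMM factors and the quasi-likelihood F-test on the 6 libraries of days 1 and 11. Genes were called at a Benjamini-Hochberg adjusted p under 0.05 with at least a 1.5-fold change. SE is the log2 change divided by the square root of F. Totals of 46210038 to 181988641 reads put 3 reads at a floor between 0.0165 and 0.0649 CPM; counting intervals cover counting error only. Day 9 against day 3 used 6 libraries, and the difference between genotypes 12. For days 3 and 9, same-numbered libraries deviated together from their day means (r = 0.878, 0.700 and 0.831), so a block for the number was added. For days 1 and 11 they did so only weakly (r = 0.086, 0.199 and 0.189), and the main test had no block. Replicates were not duplicates of one another. The test recovered changes planted in simulated counts, which had the same small spread for every gene and were changed only in genes above a low expression cut. Many genes called here were weaker or more scattered than that, so the simulation does not measure how reliable their calls are.

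Members of 58 gene lists came from the study's cell type markers and from general knowledge. Left out were 6 entries that matched no single gene, among them rye, which matched 2. The members and lists were chosen with earlier results of these data known. Named genes were the 10 largest rises and 10 largest falls among called genes with non-overlapping libraries and a mean of at least 5 CPM on the higher day, the called members of each list (the 3 with the smallest adjusted p where there were 3 or more), and chinmo. All others were named after their values were seen. Alternatives were DESeq2 1.42.0, other scalings, no filter, adjusted p alone, omission of each library, a replicate block, removal of a gene length trend, thinned counts, fits with more testis libraries, and limma 3.58.1 on log2(TPM + 1). Ovaries of chinmoST flies were not used here.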

Additional observations from a re-analysis of the deposited data

Results flagged for a closer look

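Among the 20 largest rises and falls, 5 genes changed differently from day 1 to day 11 in chinmoST and wild-type testes by edgeR's interaction test, where 63.2% of all 14464 tested genes did. For Mst57Db the log2 change was higher in chinmoST testes by 5.41 ± 1.75 (SE; edgeR adjusted p = 0.0152), and for CG42481 by 4.73 ± 1.88 (edgeR adjusted p = 0.0406). For Met75Cb the difference was 11.16 ± 4.23 (edgeR adjusted p = 0.0326), for CG43101 10.05 ± 3.93 (edgeR adjusted p = 0.037) and for Dup99B 9.25 ± 3.68 (edgeR adjusted p = 0.0402). All 5 rest on scattered chinmoST libraries, the last 3 most of all. Met75Cb stood at 0.0342, 0.0585 and 128.5 CPM on day 1 and at 0.189, 0.364 and 301.2 CPM on day 11. Replicate 3 of each day thus carried nearly all of its reads. Mst57Db and CG42481 also had their highest value in replicate 3 on both days. Mst57Db stood at 32.4, 25.6 and 124.9 CPM on day 1 and at 0.0591, 0.83 and 9.3 CPM on day 11. Without replicate 3 of day 1 in chinmoST testes all 5 still differed in the same direction. That omission is no check on the scattered genes, since the high replicate 3 of day 11 stays in. It raised the difference to 21.09 for Met75Cb, 20.41 for CG43101 and 18.07 for Dup99B. The lowest differences with a chinmoST library left out were 2.72, 0.74 and 3.13 for these genes. For Mst57Db and CG42481 the lowest were 2.58 and 2.17. Of 20 alternatives the call was lost in 1 for Mst57Db, 6 for Met75Cb, 7 for CG43101, 8 for Dup99B and 10 for CG42481.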

How the results depend on the processing

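The count of 633 genes for day 11 against day 1 lay between 428 and 772 under 10 alternatives. The 428 is no refit but the 633 calls less the 205 genes that follow the accessory gland sum, a choice made after seeing the data. The next lowest was 504, with thinned counts. The count lay between 479 and 681 when each library was left out in turn. It moved to 53 with all 18 wild-type testis libraries, 99 with all 36 testis libraries and 381 with limma on log2(TPM + 1). With a replicate block it was 602, though same-numbered libraries of these days deviated together only weakly (r = 0.086, 0.199 and 0.189). Libraries of different numbers had r from -0.142 to -0.032. Library size alone raised the median log2 change of all genes to 0.108 and called 240 higher and 436 lower. For day 9 against day 3, where 0 genes passed, DESeq2 called 39 and the paired fit with a replicate block 32, and every left-out library gave 0. The difference between genotypes gave 9136 genes and between 8782 and 9805 without a library. Calls of the opposite direction appeared for 4 named genes in that difference: Amy-p ranged from -1.91 to 2.50, CG3690 from -1.94 to 2.41, Cyp4g1 from -2.55 to 3.18 and Cyp6a8 from -2.16 to 3.01 as chinmoST libraries were left out, the highest each time without replicate 3 of day 1. No named gene called for day 11 against day 1 changed direction. The cause of these shifts was not tested.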
